A study of Mus musculus with 6 samples.

Results

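The 10 genes described here encode ligands, receptors and an antagonist of myostatin, activin and TGF-beta signalling. They were chosen by symbol from a list (Mstn, Gdf11, Inhba, Fst, Tgfb1, Tgfb2, Tgfb3, Tgfbr1, Tgfbr2 and Acvr2b) out of 55536 genes in the count files, and all 10 passed the filter on low counts that left 22404 genes for testing. RNA-seq compared 3 control samples (Pax7CreErt2;Hira fl/+) with 3 cKO samples (Pax7CreErt2;Hira fl/fl) of satellite cells, the stem cells of skeletal muscle, from adult male C57BL/6J mice. Mice of both genotypes carried the Cre, received tamoxifen in their food and were injured in the tibialis anterior with BaCl2. Controls thus kept 1 intact Hira allele, although their labels give them as WT, and the Cre acts only in cells that express Pax7, so that any other cell type in a sample should still carry Hira. Cells were sorted 5 days after injury as CD34+ ITGA7+ CD45- TER119- SCA1- cells and then kept for 48 h in medium with serum and bFGF. HIRA is a chaperone that places the histone variant H3.3 in chromatin, and the comparison asks which genes change when activated satellite cells lose it.

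Ligands of this family are made as precursors, cleaved by convertases and often held latent by their own propeptide until it is removed. Myostatin, activins and GDF11 bind the type II receptors ActRIIA and ActRIIB, while the TGF-beta isoforms bind TGFBR2, which then recruits the type I receptor TGFBR1. Either way the signal passes through SMAD2 and SMAD3 with SMAD4. In skeletal muscle, myostatin is known as a brake on muscle growth, follistatin binds and neutralises activins and myostatin, and TGF-beta and activin are known to hold back differentiation of myoblasts.

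Total counts per sample ranged from 47944477 to 63323577 reads. Hira itself had a log2FC (log2 fold change of cKO over control, with its standard error, SE) of -0.43 in cKO (SE 0.12, adjusted p = 0.0237, edgeR's quasi-likelihood test), with an adjusted p of 0.104 without control replicate 1. Without cKO replicate 1, which had 3.36 CPM of Hira beside 4.95 and 4.87 CPM in the other cKO samples, the log2FC was -0.29 (adjusted p = 0.0459). Of the exonic bases of Hira, 44.7% are shared with another gene on the same strand. For satellite cells of this cKO line after the tamoxifen diet, the paper reports a sharp drop of Hira mRNA by RT-qPCR. It also reports that HIRA protein was not detected by immunostaining, and it names no injury for either measure. Both measures differ from the counts over the whole gene used here, in which Hira was 1.35-fold higher in control. Of 22404 genes tested, 9.38% were higher and 6.46% lower in cKO at an adjusted p under 0.05, or 59.2% higher among the genes called (70.0% with scaling by total counts alone). Markers of satellite and myogenic cells summed to between 9327 and 9441 CPM (counts scaled to a total of 1000000 per sample) in control. In cKO they summed to between 8255 and 8805 CPM, with 8 of 10 genes lower. Most of this sum came from Des, Chrna1 and Myog (means of 3199, 2323 and 2112 CPM in control). Pax7 had a mean of 39.3 CPM and Myf5 of 68.5 CPM in control. Summed markers listed for other cells were higher in cKO. These lists are not exclusive to other cells. The paper proposes from this comparison that satellite cells without HIRA express more genes of endothelial and other lineages. It reports VE-Cadherin (Cdh5) immunostaining in isolated cKO satellite cells, and RT-qPCR of Cdh5 and Pdgfra. In the counts used here both were called higher, Cdh5 of the endothelial list at 0.47 and Pdgfra of the fibroblast list at 1.15 (log2FC). The fibroblast list holds Cd34, by which the cells were sorted, and it was called higher (log2FC 0.49). Itga7, also selected for, was called lower (-0.12, adjusted p = 0.0271 from edgeR). Ptprc, which encodes CD45 and was selected against, was called higher (0.96, adjusted p = 5.22e-05). Ly6a, which encodes SCA1 and was also selected against, was not called (0.24, adjusted p = 0.115). For macrophages 12 of 12 genes rose, and their sum was 142 to 146 CPM in control and 301 to 352 CPM in cKO. For fibroblasts 8 of 12 genes rose (11 tested), with a sum of 1089 to 1169 CPM in control and 1490 to 1659 CPM in cKO. Most of this sum came from Col1a2 and Col3a1 (means of 586 and 393 CPM in control), which rose 1.198-fold and 1.155-fold. For endothelial cells 5 of 10 genes rose, with a sum of 18.2 to 20.7 CPM in control and 28.6 to 34.2 CPM in cKO. Of the 10 smooth muscle and pericyte markers (9 tested), 7 rose and 2 fell, with a sum of 3278 to 3336 CPM in control and 3578 to 3721 CPM in cKO. Most of that sum was Acta2 (mean of 2929 CPM in control), which rose 1.068-fold. No marker was at 0 in all samples. In such bulk samples fewer cells of a type and less RNA per cell cannot be told apart, and the part of these other cells in the results that follow was not tested.

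Among the 10 genes, the activin subunit gene Inhba rose 2.22-fold in cKO, and the genes of the related ligands myostatin (Mstn) and GDF11 (Gdf11) fell. The 3 TGF-beta isoforms, the 3 receptors and follistatin did not pass the threshold. This is 1 of 10 higher, against 9.38% of all genes tested, and 2 of 10 lower, against 6.46%, or 3 of 10 in either direction, against 15.8%. The median log2FC of the members was 0.03, beside -0.0011 over all genes tested. In CPM, 7 of the 10 members had groups that did not overlap (6 with TMM scaling, a comparison chosen after seeing the data), against 31.4% of all genes (31.8% with TMM scaling).

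**Figure D1:**
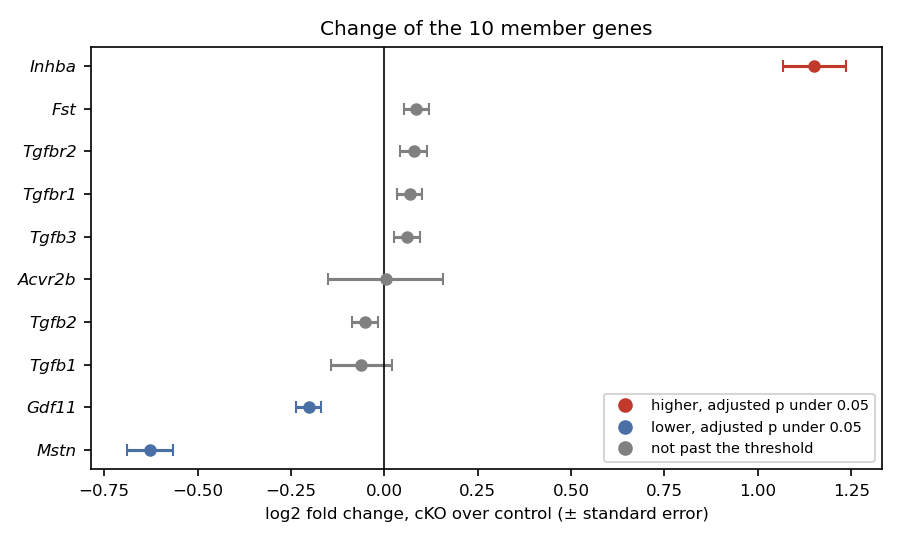
Log2FC of cKO over control (x axis) for each of the 10 genes (y axis), with bars of 1 SE derived from edgeR's quasi-likelihood F. Red and blue points passed an adjusted p of 0.05. Inhba stands at 1.15 and Mstn at -0.63, Gdf11 is at -0.20, and the other genes lie between -0.06 and 0.09.

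To compare genes with each other, counts were divided by the length of annotated exon (RPKM, reads per kilobase of exon scaled to counted reads). In control samples Tgfb3 was the most abundant member, at 70.8 ± 1.26 RPKM (SD, n = 3). Tgfb2 followed at 23.9 ± 0.838, Gdf11 at 20.8 ± 0.486, Fst at 19.7 ± 0.0734 and Inhba at 13.8 ± 0.635 RPKM. Lower in the order were Tgfbr1 at 11.1 ± 0.0897, Mstn at 7.44 ± 0.0801, Tgfbr2 at 5.94 ± 0.116 and Tgfb1 at 2.61 ± 0.145 RPKM. Acvr2b, which encodes the receptor ActRIIB, was lowest at 0.487 ± 0.0798 RPKM. No neighbours in this order had overlapping ranges over the 3 samples.
In cKO samples Inhba moved from the fifth place to the second, at 31.2 ± 5.36 RPKM (SD, n = 3), above Tgfb2 at 23.5 ± 0.957 RPKM. Mstn, at 4.91 ± 0.434 RPKM, came to lie below Tgfbr2 at 6.38 ± 0.142 RPKM. Tgfb3 stayed highest at 75.1 ± 3.11 RPKM and Acvr2b lowest at 0.497 ± 0.0878 RPKM. The order depends on the length used: with the longest transcript of each gene in place of all its exons, Fst is at 30.9 RPKM in control and 33.4 RPKM in cKO and takes the second place in both groups. With that length, the range of Inhba in cKO overlaps those of Fst and Tgfb2, and the ranges of Tgfb1 and Mstn overlap each other.

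**Figure D2:**
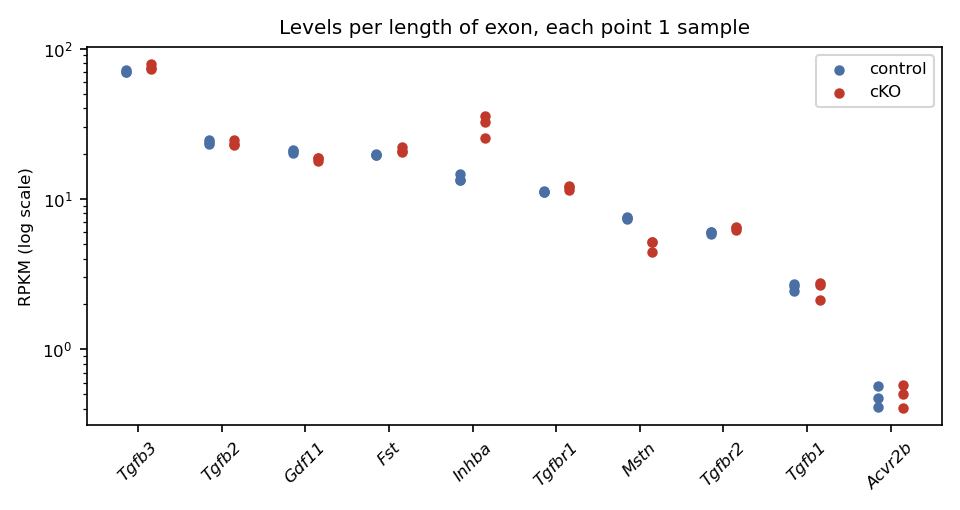
Level of each member per length of exon (y axis, RPKM on a log scale) in each of the 3 control (blue) and 3 cKO (red) samples, ordered by the control mean (x axis). The levels run from 70.8 RPKM for Tgfb3 to 0.487 RPKM for Acvr2b in control, and the cKO points leave the control points most for Inhba and Mstn.

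The promoters of the 3 members that changed are shown for comparison, as the 250 bases before the start site in RefSeq on GRCm38.p6, read along the gene. Sequences of 8 of the 10 members were found. The Mstn window lies at chr1:53061390-53061639 on the plus strand, Gdf11 at chr10:128891719-128891968 on the minus strand and Inhba at chr13:16011601-16011850 on the plus strand. Capitals mark matches, on either strand, to an E-box (CANNTG), the Smad-binding letters CAGAC, an AP-1 site (TGANTCA), a cyclic AMP response element (TGACGTCA) and a TATA box (TATAAA).
Mstn: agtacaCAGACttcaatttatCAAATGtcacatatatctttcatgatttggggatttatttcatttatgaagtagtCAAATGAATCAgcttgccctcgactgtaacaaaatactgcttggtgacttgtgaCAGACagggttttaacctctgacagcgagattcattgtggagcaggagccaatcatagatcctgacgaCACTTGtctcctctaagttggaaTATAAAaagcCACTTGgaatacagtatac
Gdf11: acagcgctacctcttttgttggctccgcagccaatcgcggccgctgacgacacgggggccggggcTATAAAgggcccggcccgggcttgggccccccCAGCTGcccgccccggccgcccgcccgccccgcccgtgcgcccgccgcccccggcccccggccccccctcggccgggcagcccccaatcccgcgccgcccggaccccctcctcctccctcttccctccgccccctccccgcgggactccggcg
Inhba: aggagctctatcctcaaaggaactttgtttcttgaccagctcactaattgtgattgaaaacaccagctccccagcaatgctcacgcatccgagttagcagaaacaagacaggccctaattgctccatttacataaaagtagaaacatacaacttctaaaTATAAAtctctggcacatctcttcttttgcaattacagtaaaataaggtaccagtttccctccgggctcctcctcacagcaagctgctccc
The Mstn window had 4 E-boxes, 2 Smad motifs, 1 AP-1 motif that overlaps an E-box, and a TATA box with its first base 29 bases before the start. E-boxes are bound by MYOD and other myogenic factors, but they occurred in 66.2% of 32851 promoter windows of this length, and the Smad letters in 42.2%. The AP-1 motif occurred in 6.75% and the TATA box in 12.4%. The cyclic AMP response element, found in 1.55% of windows, was in none of the 3. Gdf11 had 1 E-box and 1 TATA motif in a window of 81.2% G and C, where Mstn had 38.4%. Inhba had 1 TATA motif and none of the other letters in its window of 43.2% G and C. These matches are letters in a window and were not tied to any binding.

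Mstn (ENSMUSG00000026100, chromosome 1 of mm10, 53061640 to 53068079) encodes myostatin. Between 1150 and 1275 reads were counted in a control sample and between 668 and 780 in a cKO sample. Scaled to depth, the controls had 20.3, 20.1 and 19.9 CPM, and the cKO samples had 13.9, 11.9 and 14.0 CPM. All cKO samples were lower than all controls, and the control samples were close to each other. Its log2FC was -0.63 (SE 0.06, adjusted p = 3.63e-06 from edgeR), so that control was 1.54-fold higher. Over 11 alternative settings it ranged from -0.67 to -0.55.
Gdf11 (ENSMUSG00000025352, chromosome 10, 128882295 to 128891718) encodes the ligand closest to myostatin in sequence. Its levels were 86.0, 82.2 and 85.0 CPM in control and 72.5, 75.4 and 75.8 CPM in cKO. The groups did not overlap. The log2FC was -0.20 (SE 0.03, adjusted p = 0.000613), and it ranged from -0.22 to -0.18 over 11 alternatives with an adjusted p of at most 0.00673. Per length and within each sample, the ratio of Mstn to Gdf11 was 0.355, 0.368 and 0.351 in control and 0.288, 0.237 and 0.277 in cKO. The ratio was lower in every cKO sample, by 0.43 on the log2 scale, which is a two-sided exact permutation p = 0.1, the smallest that 3 samples against 3 can give.

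Inhba (ENSMUSG00000041324, chromosome 13, 16011851 to 16031621) encodes the beta A subunit, of which activin A is a dimer. Its levels were 92.9, 85.9 and 85.9 CPM for the controls in order of their numbers, and 162, 229 and 208 CPM in the cKO replicates. The groups did not overlap, and the cKO samples were spread more widely than the controls, with cKO replicate 1 the lowest and cKO replicate 2 the highest of them. The log2FC was 1.15 (SE 0.08, adjusted p = 1.79e-07 from edgeR). It ranged from 1.04 without cKO replicate 2 to 1.28 without cKO replicate 1. By its log2FC Inhba ranked 233rd of the 2101 genes that were higher in cKO. The summed markers of macrophages, fibroblasts, endothelial cells and smooth muscle were each also highest in cKO replicate 2. For macrophages the sum was 352 CPM there, beside 313 and 301 CPM in cKO replicates 1 and 3. Among the cKO samples each of these sums was lowest in replicate 3, whereas Inhba was lowest in replicate 1. A contribution of such cells to the rise of Inhba was not tested.
The other activin and inhibin subunits tested did not pass the threshold. Inhbb, the beta B subunit, had 61.8, 66.0 and 64.6 CPM in control and 75.9, 64.2 and 70.6 CPM in cKO. These groups overlapped, and the log2FC was 0.11 (SE 0.05, adjusted p = 0.204). Without cKO replicate 2 Inhbb passed the threshold, at 0.17 (adjusted p = 0.0095). Inha, the alpha subunit that turns activins into inhibins, had a log2FC of -0.01 (SE 0.05, adjusted p = 0.92). Within each sample and per length, the ratio of Inhba to Inhbb was 1.001, 0.867 and 0.886 in control and 1.42, 2.37 and 1.96 in cKO. The ratio of Inhba to Inha was 0.442, 0.417 and 0.446 in control and 0.738, 1.16 and 1.04 in cKO. Both ratios were higher in all 3 cKO samples, by 1.03 and 1.15 on the log2 scale. Each had a two-sided exact permutation p = 0.1, the smallest that 3 samples against 3 can give. As Inhbb and Inha changed little, these ratios mostly restate the rise of Inhba itself.

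The TGF-beta isoforms, which act on growth, matrix and immune cells, did not pass the threshold. Tgfb3 (ENSMUSG00000021253, chromosome 12, 86056745 to 86079041) had 244, 238 and 236 CPM in control and 266, 246 and 250 CPM in cKO. The highest control and the lowest cKO sample were almost level, and with TMM scaling the groups overlapped. Its log2FC was 0.06 (SE 0.04, adjusted p = 0.293). Of its exonic bases, 12.4% lie opposite an exon on the other strand. Tgfb2 (ENSMUSG00000039239, chromosome 1, 186622792 to 186705989) had 133, 139 and 143 CPM in control and 133, 142 and 132 CPM in cKO, which overlap. Its log2FC was -0.05 (SE 0.04, adjusted p = 0.399).
Tgfb1 (ENSMUSG00000002603, chromosome 7, 25687002 to 25705077) had 13.7, 13.4 and 12.3 CPM in control and 10.7, 14.0 and 13.5 CPM in cKO. Here cKO replicate 1 was the lowest of all samples while the other two cKO samples lay near the highest control. The log2FC was -0.06 (SE 0.08, adjusted p = 0.699), and without cKO replicate 1 it was 0.04. Tgfb1 is also known to be expressed by macrophages, whose 12 markers were all higher in cKO.

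**Figure D3:**
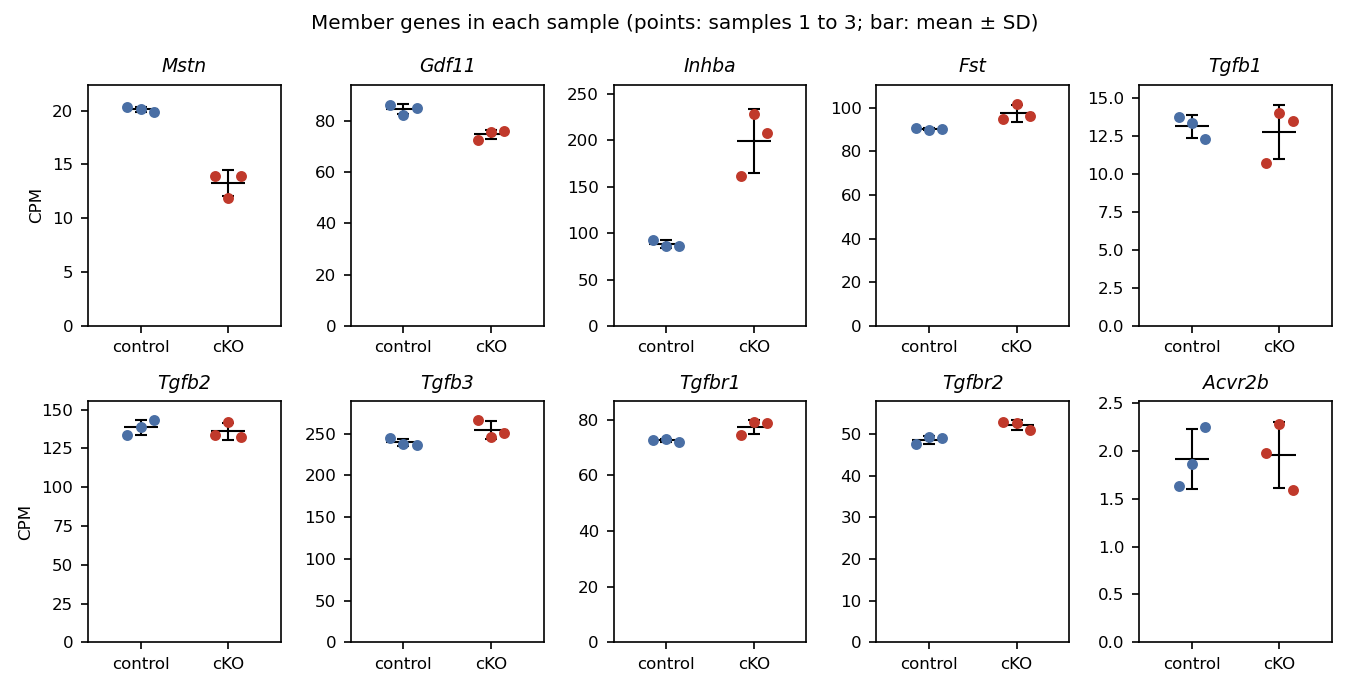
CPM (y axes, each from 0) of the 10 members in control (blue) and cKO (red) samples; each point is 1 sample, and bars give the mean and SD of 3 samples. The groups are apart for Mstn, Gdf11 and Inhba and overlap for Tgfb1, Tgfb2 and Acvr2b.

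Fst (ENSMUSG00000021765, chromosome 13, 114452290 to 114458951) encodes follistatin, the secreted antagonist of activins and myostatin. Its levels were 90.6, 89.9 and 90.4 CPM in control and 94.6, 102 and 95.9 CPM in cKO. All cKO samples were above all controls, but by little. The log2FC was 0.09 (SE 0.03, adjusted p = 0.102), which did not pass the threshold. It did pass without cKO replicate 1 (0.10, adjusted p = 0.0367) and with scaling by total counts (0.11, adjusted p = 0.041).
The level of the activin subunit was also set against that of its antagonist. Per length, the ratio of Inhba to Fst was 0.737, 0.686 and 0.683 in control and 1.23, 1.61 and 1.55 in cKO. Fst transcripts outnumbered Inhba transcripts in every control sample, and the reverse held in every cKO sample when all exons set the length. With the longest transcript as the length, the order of the means did not reverse in cKO. Fst was then at 33.4 and Inhba at 31.2 RPKM, with overlapping ranges. The difference was 1.05 on the log2 scale, with an SD of 0.0615 in control and 0.214 in cKO. Its two-sided exact permutation p was 0.1, also after adjustment over the 4 ratios compared, the smallest that 3 samples against 3 can give. As Fst changed little, this ratio also mostly restates the rise of Inhba.

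**Figure D4:**
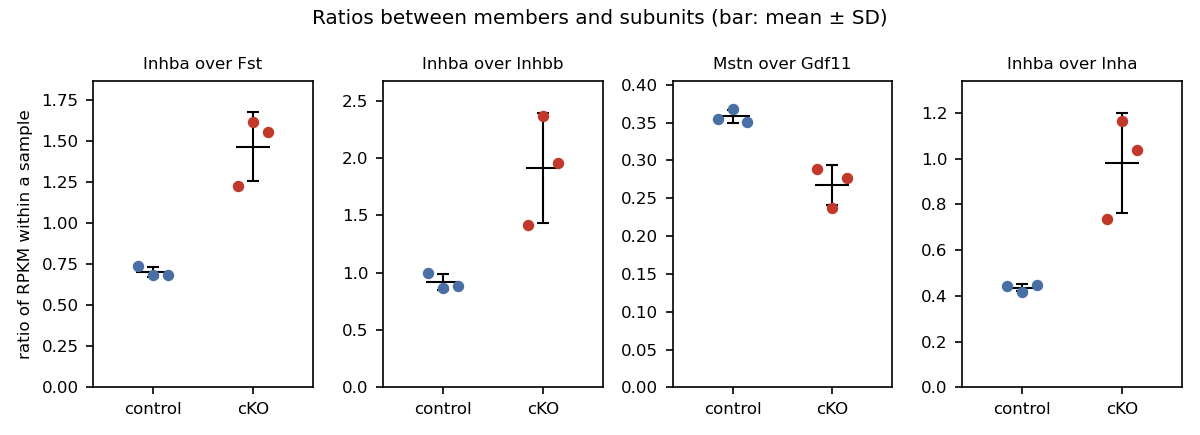
Ratio of the levels of 2 genes within a sample (y axes, each from 0) for 4 pairs, in control (blue) and cKO (red), with all exons as the length. Points are samples and bars the mean and SD of 3. The ratio of Inhba to Fst runs from 0.683 to 0.737 in control and from 1.23 to 1.61 in cKO, and that of Mstn to Gdf11 is lower in all 3 cKO samples.

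The receptors among the members showed no change past the threshold. Tgfbr1 (ENSMUSG00000007613, chromosome 4, 47353222 to 47414931) encodes the type I receptor of TGF-beta, which also serves myostatin and GDF11. It had 72.6, 73.2 and 72.0 CPM in control and 74.5, 79.0 and 78.7 CPM in cKO, with a log2FC of 0.07 (SE 0.03, adjusted p = 0.207). Tgfbr2 (ENSMUSG00000032440, chromosome 9, 116084293 to 116175360), the type II receptor, had 47.5, 49.3 and 49.1 CPM in control and 53.0, 52.7 and 50.9 CPM in cKO. Its log2FC was 0.08 (SE 0.04, adjusted p = 0.166). For both receptors the groups did not overlap, at differences of a few percent.
Acvr2b (ENSMUSG00000061393, chromosome 9, 119402118 to 119434995) had few reads, with 92, 118 and 138 counts in the controls against 95, 135 and 89 for cKO. The groups overlapped, and the log2FC was 0.0039 (SE 0.15, adjusted p = 0.993). With so few reads its SE was the largest among the 10 members. Acvr2a, the other type II receptor of activins and myostatin, had 10.6 ± 0.239 RPKM in control, where Acvr2b had 0.487 ± 0.0798 RPKM. In CPM it had 62.0, 59.3 and 60.3 CPM in control and 59.2, 56.1 and 57.9 CPM in cKO. Its log2FC was -0.09 (SE 0.04, adjusted p = 0.111), and without cKO replicate 1 it was called lower, at -0.11 (adjusted p = 0.0446). Acvr1b, the type I receptor ALK4 of activins, had a log2FC of 0.07 (SE 0.06, adjusted p = 0.549).

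The rest of the pathway was described through 70 other genes, of which 62 were tested. Of these, 30 were higher and 3 lower in cKO, with a median log2FC of 0.18, beside 9.38% higher, 6.46% lower and a median of -0.0011 over all genes. The members and these lists were chosen with earlier results of these data known, so such shares are a description and no independent test. Some listed genes, such as Col1a1, Acta2 and Dcn, are also among the markers of other cells above. Among 10 further ligands, 4 were tested and 0 were called. They were Inha, Inhbb, Lefty1 with a log2FC of 0.53 (adjusted p = 0.138) and Gdf15 with -0.21 (adjusted p = 0.0524). At an unadjusted p under 0.05 there were 2 of the 4, and DESeq2 called 0. Gdf15 was called lower in 4 of 11 alternatives, with RLE scaling (adjusted p = 0.0485), with no filter on low counts (0.00853), without control replicate 3 (0.0251) and without cKO replicate 1 (0.0186). The other 6 (Inhbc, Inhbe, Nodal, Gdf1, Gdf3 and Lefty2) had 0 to 13 counts per sample. Without cKO replicate 2, a ligand among these 6 passed the filter and was called higher. Gdf1 was listed at 0 in every sample, and its exons lie wholly within exons of Cers1 on the same strand, so this sets no limit on its level.
Among 8 further receptors, 3 of 7 tested rose and 0 fell. Acvrl1, which encodes ALK1 of endothelial cells, rose from 5.46 ± 0.457 to 10.1 ± 1.72 CPM (SD, n = 3 each), a log2FC of 0.86 (SE 0.10, adjusted p = 3.08e-05). The coreceptor genes Tgfbr3 (betaglycan) and Eng (endoglin) rose by 0.81 and 0.55 on that scale. The summed endothelial markers were also higher in cKO, with at most 20.7 CPM in control and at least 28.6 CPM in cKO. Only 5 of those 10 markers were called higher, and Flt1 rose most, from a mean of 5.60 to 12.3 CPM. Tek, Tie1, Emcn, Egfl7 and Robo4 were not called.

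Latent ligands are held and released by further proteins. Of 12 binding proteins and antagonists, 6 rose and 1 fell, with a median log2FC of 0.41. Lrrc32, which encodes GARP, a surface anchor of latent TGF-beta, had 27.0, 30.5 and 31.2 CPM in control and 77.3, 84.8 and 71.8 CPM in cKO. The groups lay wide apart, with a log2FC of 1.37 (SE 0.06, adjusted p = 7.12e-10). Ltbp2, a matrix protein related to the latent TGF-beta binding proteins, had 68.5, 69.7 and 69.2 CPM in control and 147, 162 and 147 CPM in cKO, a log2FC of 1.11. Dcn (decorin) rose by 1.10, at about 1 CPM in control, and Bambi, a decoy receptor, by 0.64. Dcn is also one of the fibroblast markers. Ltbp1, a latent TGF-beta binding protein, was the 1 gene of the list that fell, by 0.14 on the log2 scale (adjusted p = 0.00688), and its adjusted p was 0.0507 without control replicate 3.
Of 10 genes for processing and activation, 9 were tested, 6 rose and 1 fell. Tll1, a protease of the tolloid family that can cleave the myostatin propeptide, rose from 12.1 ± 0.23 to 28.3 ± 4.12 CPM (SD, n = 3 each), a log2FC of 1.21 (SE 0.08, adjusted p = 4.56e-08). Its relative Bmp1 rose by 0.23. Pcsk6, a convertase, rose by 0.78, while Furin, the main convertase of these precursors, had a log2FC of -0.07 (adjusted p = 0.433). Without cKO replicate 1 Furin was called lower, at -0.14 (adjusted p = 0.0253). Thbs1, thrombospondin 1, an activator of latent TGF-beta, rose by 0.70 from 2388 ± 3.84 to 3952 ± 259 CPM (SD, n = 3 each). Of the integrin subunits that activate latent TGF-beta, Itgav rose by 0.26 and Itgb8 by 0.23, and Itgb6 fell by 0.29 on the log2 scale. The call of Itgb8 was lost in 3 alternatives that left out a sample.

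**Figure D5:**
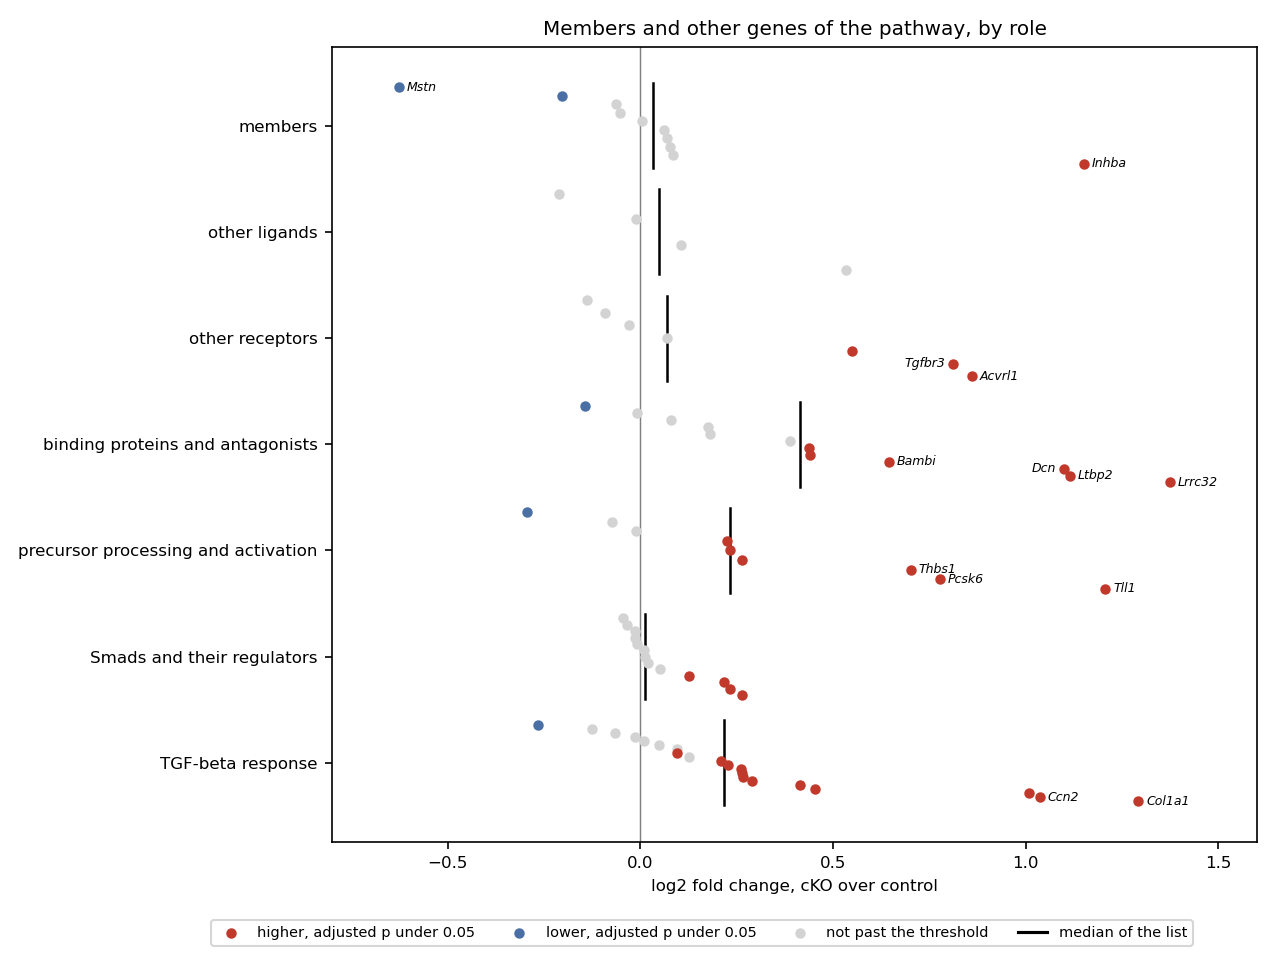
Log2FC of cKO over control (x axis) for the tested genes of each list (y axis), 1 point a gene, with the median of each list as a black line. Red points (higher) and blue points (lower) passed an adjusted p of 0.05, and the genes with the largest changes that the text describes are named. The medians run from 0.01 for Smads and their regulators to 0.41 for binding proteins and antagonists.

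Of 13 Smads and their regulators, 4 rose and 0 fell. The signal carriers Smad2 and Smad4 had log2FCs of -0.05 and 0.01 (adjusted p = 0.417 and 0.867), and Smad3 rose by 0.23 (SE 0.06, adjusted p = 0.0173). The inhibitory Smad7 had 69.1, 68.1 and 70.1 CPM in control and 79.3, 90.4 and 83.3 CPM in cKO, a rise of 0.26. Smurf2, a ubiquitin ligase that works with SMAD7, rose by 0.22, and Smad6 by 0.13. The call of Smad3 was lost without control replicate 2 (adjusted p = 0.109) or cKO replicate 3 (0.0707), and that of Smad6 in 8 of 11 alternatives.
A list of 20 genes known to respond to TGF-beta had 12 genes higher and 1 lower, with a median of 0.22. Ccn2, a matricellular protein, had 417, 419 and 428 CPM in control and 839, 940 and 856 CPM in cKO. All cKO samples were above all controls, with a log2FC of 1.04 (SE 0.04, adjusted p = 2.25e-10). Its exons lie to 23.2% opposite another gene. Col1a1 rose by 1.29 and Tgfbi by 0.45. The exception was Cdkn1a, a cell cycle inhibitor, which fell by 0.26 on the log2 scale (adjusted p = 0.000496). Skil, a feedback inhibitor that Smads induce, was among the 7 genes not called, with a log2FC of 0.0092 (adjusted p = 0.892). The others not called were Bhlhe40 (0.13), Junb (0.09), Pmepa1 (0.05), Tgif1 (-0.01), Klf10 (-0.07) and Cdkn2b (-0.12). Of these, Bhlhe40, Junb, Pmepa1 and Cdkn2b passed the threshold in an alternative setting. Other pathways also act on the genes of this list, and 5 of the 20 are markers of fibroblasts or smooth muscle in the lists above. Of the 15 that are not, 7 rose and 1 fell, with a median of 0.13.

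Over the 6 samples, the genes whose log2 CPM was most like that of Mstn, among 12560 genes with a mean of at least 5 CPM, were Usp13 (Pearson r = 0.998), Ephb3 (0.996) and Iffo1 (0.996). They fell by 0.23, 0.25 and 0.20 on the log2 scale, less than Mstn. Those most like Inhba were the pseudogene Gm9845 (r = 0.999), Cnn2 (0.998) and Crtap (0.998), with log2FCs of 0.28, 0.45 and 0.11. The last of these did not pass the threshold (adjusted p = 0.0677). These values are a description over 2 groups of 3 samples, in which all genes share the libraries and their depths.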

How the data were processed

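RNA-seq was performed by the study on total RNA depleted of ribosomal RNA (400 ng, stranded kit, single-end reads of 75 bp). The authors aligned reads to mm10 with Bowtie2 2.3.4.2, which does not split reads across introns, and deposited raw counts per gene made with featureCounts 1.6.3; its strand setting is not given in the sources used here. The DESeq2 2.11.40.6 table deposited by the authors holds their own comparison and was not used, nor were their normalized counts. All 55536 gene identifiers matched GENCODE M21, on the same build. Counts were tested with edgeR 4.0.16 in R 4.3.3 (low counts removed by filterByExpr, TMM scaling, a quasi-likelihood fit on genotype alone, Benjamini-Hochberg adjustment over 22404 genes, threshold 0.05), and the scripts were tested on simulated counts. The coefficient of variation between replicates was 3.92%, and members had 89 to 15065 counts in a sample. The paper calls the samples independent RNA samples, so p-values measure only the spread between these samples, which may be technical. CPM and RPKM used total counts. The SE of a log2FC was not an output of the fit but its absolute value divided by the square root of the quasi-likelihood F. No pair of replicates agreed within sampling noise.

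Samples were grouped by their titles. Named genes were the 10 members, the 4 called genes with the largest log2 fold change of each pathway list, listed receptors, convertases and Smads where a sentence needed them, Hira, and the 3 genes most like Mstn and the called member that rose most (Inhba). Ltbp1, Cdkn1a, Bmp1, Itgav, Itgb8, the uncalled ligands, Skil and the other uncalled response genes were named after their values were seen. So were the single marker genes. 1 gene that this rule names is not reported here, though list counts include it. The members and lists were chosen with earlier results of these data known. Alternatives were DESeq2 1.42.0, RLE and total-count scaling, no filter, a replicate block, an adjusted p under 0.01, transcript length, and leaving out each sample. Promoters came from RefSeq on GRCm38.p6. Python 3.11.15 was used for summaries, with scipy 1.17.1 for permutation tests.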

Additional observations from a re-analysis of the deposited data

How the results depend on the processing

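The calls of Mstn, Gdf11 and Inhba kept their direction and their side of the threshold in all 11 alternatives. The number of members higher in cKO was 2 in place of 1 with total-count scaling, and 1 to 2 with each sample left out, the additional gene being Fst. Of the 70 other pathway genes, 30 were higher and 3 lower. With no filter on low counts 5 were lower, and with each sample left out 25 to 33 were higher and 3 to 7 lower, the latter without cKO replicate 1. Of the 33 called, 7 lost the call in at least 1 alternative (Ltbp1, Itgb8, Fn1, Tagln, Smad3, Acta2 and Smad6), and 10 genes tested but uncalled gained one. A ligand not tested in the main fit was also called higher without cKO replicate 2. Over all genes, 2101 were higher and 1448 lower, and with each sample left out 1571 to 2214 were higher and 917 to 1673 lower. The lowest numbers of lower genes came without control replicates 1 (917), 2 (934) and 3 (960). Genes called higher made up 59.2% of calls, and 70.0% with total-count scaling.

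Samples with the same number did not deviate together (correlations of -0.0504, -0.0336 and -0.0206), so the numbers were not taken as pairs. With a replicate block, 1 member was higher and 2 lower, 28 and 3 of the other pathway genes were called, and 1901 and 1251 of all genes. The block removed the calls of Acta2 (adjusted p = 0.0771) and Smad6 (0.0636). Acvr2b, with about 100 counts, changed sign in 5 of 11 alternatives and was called in none of them, and Tgfb1 in 1, also without a call. Counting error was 10.6% at the lowest count of Acvr2b, which limits how small a change could be seen.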
